A study of Mus musculus with 4 samples.

Results

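Lipoprotein secretion genes were examined in single-nucleus RNA-Seq (snRNA-Seq) of mouse liver. The 9 genes Apoa1, Apoa2, Apoa4, Apob, Apoc3, Apoe, Mttp, Lipc and Angptl8 were chosen by name from 54464 genes in the count matrix. No rule on their values was used, but earlier results of these data were known. The 9 genes were followed across hepatocyte clusters, the other liver cell types and genotype, as sums of unique molecular identifier (UMI) counts per mouse. The share of nuclei with a UMI was also described within each mouse. Nuclei came from 3 HNKO mice, which carry Nampt fl/fl and Cre driven by the albumin promoter and so lack Nampt in hepatocytes by design, and from 3 floxed WT littermates without Cre. All were females on a C57BL6/BomTac background that received a purified control diet for 6 weeks, so that no group without this diet entered the comparison. Mice of the cohort fed in this way were 8 to 12 weeks old at the start. Mice are numbered by the name of the hashtag, the antibody-bound barcode that identifies the mouse of a nucleus. The pools that were sequenced held all mice, and genotype is known through the hashtag alone.

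The liver exports triglyceride and cholesterol as very low density lipoprotein, in particles built on apolipoprotein B, the product of Apob. Microsomal triglyceride transfer protein, encoded by Mttp, lipidates apolipoprotein B in the endoplasmic reticulum, and apolipoproteins C-III and E join the particle and set its fate in plasma. Apolipoproteins A-I and A-II form the protein frame of high density lipoprotein, hepatic lipase from Lipc trims remnants and high density particles, and ANGPTL8 takes part in holding back lipoprotein lipase after a meal.

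In the GENCODE annotation of GRCm38, Apoa1 (chr9:46228580-46230466, plus strand), Apoc3 (chr9:46232933-46235636, minus) and Apoa4 (chr9:46240696-46243459, plus) lie side by side, and Lipc (chr9:70798128-70952226, minus) and Angptl8 (chr9:21835510-21837347, plus) are on the same chromosome. The other members are Apoa2 (chr1:171225054-171226379, plus), Apob (chr12:7977648-8016835, plus), Apoe (chr7:19696109-19699188, minus) and Mttp (chr3:138089854-138144968, minus). Angptl8 is nested in Dock6 on the opposite strand, over 1838 bases. Apoa4, Mttp and Lipc also share bases with genes on the opposite strand. Whether strand was used in counting is not given in the sources used here, so that reads of these 4 members and of their partners may not have been told apart.

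RefSeq promoter windows (GRCm38.p6) were found for 8 of the 9 members, with Apoc3 unmatched. The letters CAAAGNNCA, read on both strands as CAAAGNNCA or TGNNCTTTG, resemble the direct repeat bound by HNF4A, a nuclear receptor of hepatocytes known to act on apolipoprotein genes. In the 250 bases before the start, 3 of the 12 member windows held a match, against 5.49% of all 32851 promoter windows. All 3 matching stretches are shown, and they belong to Apob, Lipc and Apoa4. A relation between a match and the level of a gene was not tested. Capitals mark the match, and each sequence runs 5′ to 3′ on the strand of its gene.
Apob, chr12:7977549-7977607, plus strand: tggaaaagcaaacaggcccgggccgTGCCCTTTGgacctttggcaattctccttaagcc
Lipc, chr9:70934851-70934909, minus strand: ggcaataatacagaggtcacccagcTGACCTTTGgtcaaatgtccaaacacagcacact
Apoa4, chr9:46240637-46240695, plus strand: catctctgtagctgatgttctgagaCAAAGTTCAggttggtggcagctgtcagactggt
The Lipc stretch precedes a second start inside the gene, between annotated exons, and the window at the first Lipc start held no match. The Apoa4 stretch lies within an exon of Gm47528 on the opposite strand. A match is a description of the letters and not a measured binding site.

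The matrix held 5193 nuclei, 629 to 1063 per mouse, and 3766532 to 7763269 UMIs per mouse. Hepatocytes were 4410 of these nuclei in 13 clusters named by the authors, with 3524497 to 6635290 UMIs per mouse. Nampt, the targeted gene, was at 92.2, 109 and 104 CPM in hepatocytes of WT mice 1, 2 and 3. CPM are UMIs scaled to a common library size. HNKO mice 1, 2 and 3 had Nampt at 92.3, 148 and 71.5 CPM. The log2 fold change was 0.03 (SE 0.27, edgeR FDR 0.98), so that Nampt counts did not separate the labels. Which parts of the gene these counts came from was not tested. HNKO mouse 3 stood apart in several measures. Its own hashtag gave 49.0% of its hashtag counts, against 66.1% to 80.3% in the others, its TMM factor was 1.28 against 0.917 to 1.01, and the 5 hepatocyte genes Alb, Ttr, Trf, Fgb and Ahsg summed to 6421 in its hepatocytes against 8832 to 11508 in the others (raw CPM, scaled to the sum of UMIs alone). The genotypes named below are those of the labels.

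To determine whether hepatocyte loss of Nampt by design went with altered expression of these genes, hepatocyte sums were compared between genotypes. None of the 9 members was called at an FDR of 0.05 by edgeR's quasi-likelihood test, where 0 of 11810 genes tested were called (0.00%). At an unadjusted p under 0.05, 1 member passed, against 5.91% of all genes, and DESeq2 called 21 genes, none of them a member. The fitted log2 fold changes of HNKO against WT were positive for 3 members and negative for 6, with a median of -0.20 beside 0.02 over all genes tested. CPM here are scaled by TMM (trimmed mean of M values), whereas raw CPM have no such scaling. HNKO mouse 3 weighs on the TMM scaling: with UMI totals alone the median over all genes was 0.20 in place of 0.02.

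Apob was at 999.8, 1092 and 906 CPM in WT mice 1, 2 and 3. The HNKO mice 1, 2 and 3 had it at 719, 1156 and 788 CPM. The HNKO mice spanned more than the whole WT range, with the highest and the 2 lowest values of the 6 mice, and the difference was within the spread (log2 fold change -0.17, SE 0.26, FDR 0.91). Its log2 fold change was 0.0012 with UMI totals alone, so that the sign depended on the scaling.

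Mttp, which loads lipid onto apolipoprotein B, was at 304, 191 and 250.4 CPM in WT mice 1, 2 and 3 and at 143, 217 and 104 CPM in HNKO mice 1, 2 and 3. HNKO mouse 2 lay within the WT range and the other HNKO mice lay below it. The fitted log2 fold change was -0.68 (SE 0.30, unadjusted p = 0.054 by the edgeR fit, FDR 0.82). Leaving out HNKO mouse 2 gave -1.0 (FDR 0.27) and leaving out HNKO mouse 3 gave -0.45 (FDR 0.98).

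Among the apolipoproteins of high density lipoprotein, Apoa1 was at 676, 673 and 549 CPM in WT mice 1, 2 and 3 and at 588, 652 and 254 CPM in HNKO mice 1, 2 and 3. HNKO mouse 3 was low and the other HNKO mice lay within the WT range, so that the log2 fold change of -0.35 (SE 0.35, FDR 0.86) became -0.02 without HNKO mouse 3. Apoa2 was at 514, 466 and 461 CPM in WT mice 1, 2 and 3 and at 296, 436 and 268 CPM in HNKO mice 1, 2 and 3. All HNKO values of Apoa2 were below all WT values (log2 fold change -0.53, SE 0.24, FDR 0.82). In raw CPM without TMM, HNKO mouse 2 reached 438 against 431 in WT mouse 3, and the groups overlapped.

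Apoe, the ligand through which remnants are taken up, was at 462, 462 and 459.8 CPM in WT mice 1, 2 and 3. The HNKO mice 1, 2 and 3 had it at 342, 419 and 436 CPM, all below WT (log2 fold change -0.21, SE 0.19, FDR 0.85). As for Apoa2, the separation was lost without TMM, where HNKO mouse 3 had 554 raw CPM and the highest value of all mice. Thus 2 of the 9 members were lower in HNKO mice without overlap, against 5.17% of all genes tested in that direction and 11.6% in either, and neither kept it under the other scaling.

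Apoc3, an inhibitor of triglyceride clearance, was at 239, 207 and 242 CPM in WT mice 1, 2 and 3 and at 184, 265 and 149 CPM in HNKO mice 1, 2 and 3, with HNKO mice on both sides of the WT range (log2 fold change -0.20, SE 0.24, FDR 0.88, or -0.46 without HNKO mouse 2 and -0.02 without HNKO mouse 3). Its neighbour Apoa4, an apolipoprotein known for its rise in fatty and fasted mouse liver, was counted rarely, with 37, 42 and 55 UMIs in WT mice 1, 2 and 3 and 148, 243 and 73 UMIs in HNKO mice 1, 2 and 3. These gave 11.4, 11 and 13.2 CPM for WT and 24.5, 40.4 and 10.5 CPM for HNKO. HNKO mice 1 and 2 were above all WT mice and HNKO mouse 3 was below them.

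The log2 fold change of Apoa4 was 1.07 (SE 0.44, unadjusted p = 0.042 by the edgeR fit, FDR 0.82), and Apoa4 was the member that passed without adjustment. It was 1.45 without HNKO mouse 3 and 0.55 without HNKO mouse 2. In raw CPM without TMM, HNKO mouse 3 was at 13.3 and WT mice at 10.5 to 12.4, so that the groups no longer overlapped, as for 10.2% of all genes tested in that direction and on that scale.

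Lipc was at 514, 428 and 120.2 CPM in WT mice 1, 2 and 3 and at 316, 401 and 429.6 CPM in HNKO mice 1, 2 and 3. WT mouse 3 had less than any other mouse, from 500 UMIs, and lay well outside the range of 316 to 514 CPM held by the other mice of both genotypes. The log2 fold change of 0.11 (SE 0.47, FDR 0.97) turned to -0.30 without WT mouse 3.

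Angptl8 was at 18.2, 22.6 and 16.6 CPM in WT mice 1, 2 and 3, from 59, 86 and 69 UMIs. HNKO mouse 3 had 89.4 CPM, from 624 UMIs, whereas HNKO mice 1 and 2 had 7.77 and 23.0 CPM. The log2 fold change of 1.07 (SE 0.74, FDR 0.83) became -0.31 without HNKO mouse 3, so that 1 mouse set its sign. Dock6, in which Angptl8 is nested, was at 35.3 raw CPM in HNKO mouse 3 and at 15.1 to 29.0 in the other mice, and the part of shared reads was not tested.

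**Figure D1:**
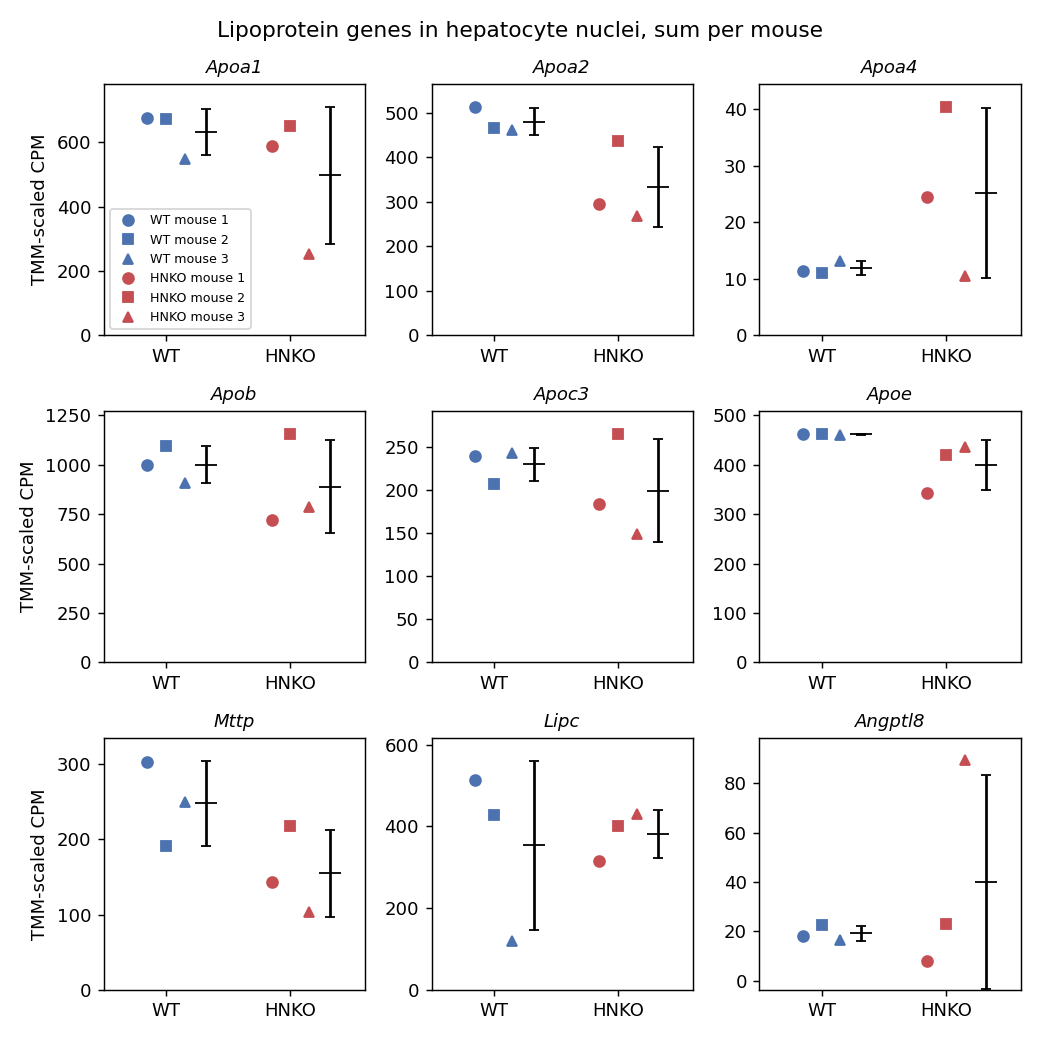
TMM-scaled CPM of the 9 members in hepatocyte sums of 3 WT (blue) and 3 HNKO (red) mice, with 1 symbol per mouse and black bars for mean ± SD. WT mouse 3 is low for Lipc (120.2 CPM), HNKO mouse 3 is high for Angptl8 (89.4 CPM) and low for Apoa1 (254 CPM), and Apoa2 and Apoe are separated by genotype on this scale.

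Other genes of the pathway were given as lists. In hepatocytes, none of 8 other apolipoproteins, 14 genes of assembly and export, 6 tested lipases and remodelling genes, 8 tested efflux and receptor genes and 9 transcription factors was called between genotypes. Among the largest fitted log2 fold changes were -0.38 for Apoc4 and -0.34 for Apom among the other apolipoproteins, and -0.48 for A1cf, a cofactor of Apob mRNA editing. Sar1b, a GTPase of the coat that carries lipoproteins out of the endoplasmic reticulum, was at -0.81, and at -0.39 without HNKO mouse 3, where it was lowest (78.8 CPM), or -1.25 without HNKO mouse 2. Among lipases and their partners, Angptl4, an inhibitor of lipoprotein lipase, was at -0.97, and at -0.46 without HNKO mouse 3 (4.16 CPM, against 31.6 to 49.0 in the other mice). Scarb1, the receptor for high density lipoprotein, was at 0.58 and turned to -0.18 without HNKO mouse 1, which had 497 CPM against 146 to 232 in the others. The hepatocyte transcription factor Nr1h4 was at -0.41, and Foxa2 was at 0.88, or 0.21 without HNKO mouse 3. None of these 8 had an FDR below 0.82 by the edgeR test.

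Hepatocytes differ along the lobule, between the portal tract that brings blood in and the central vein that drains it. To determine whether the members are zonated, each mouse's hepatocyte nuclei were ranked by a score of 10 pericentral genes (such as Glul and Cyp2e1) minus 10 periportal genes (such as Sds and Hal), none of them a member, and the pericentral tercile (highest scores) was compared with the periportal tercile (lowest scores). A tercile held 187 to 282 nuclei. Not all score genes separated the terciles they helped to set. In raw CPM, the periportal score genes Cps1 and Pck1 had median pericentral to periportal ratios of 0.872 and 0.979. Each was higher in the pericentral tercile in 2 of 6 mice. By edgeR with mouse as a block, 3 of 9 members were called, beside 20.1% of the 8641 genes tested. Lipc and Apob were higher in the pericentral tercile, as were 11.4% of genes, and Apoc3 was higher in the periportal tercile, as were 8.69% of genes.

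Lipc was at 463, 375 and 97.2 CPM in the periportal tercile of WT mice 1, 2 and 3 and at 548, 484 and 149 CPM in their pericentral tercile. In HNKO mice 1, 2 and 3 it was at 252, 328 and 410.1 CPM in the periportal and 361, 492 and 464 CPM in the pericentral tercile. Every mouse had more Lipc in the pericentral tercile, by 1.13 to 1.54 times, including WT mouse 3 with its low level, as did 11.3% of all genes tested (log2 difference 0.41, SE 0.07, FDR 0.00048). The pericentral excess of Lipc was past the threshold in 13 of 14 alternative settings, the exception being the fit without the block.

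Apob was at 785, 1042 and 902 CPM in the periportal tercile of WT mice 1, 2 and 3 and at 1231, 1190 and 999.97 CPM in their pericentral tercile. In HNKO mice 1, 2 and 3 the periportal values were 654, 1011 and 849.5 CPM and the pericentral values 749, 1369 and 824 CPM. Of the 6 mice, 5 had more Apob in the pericentral tercile, and HNKO mouse 3 had slightly less (log2 difference 0.26, SE 0.08, FDR 0.023). This call was lost with DESeq2 (FDR 0.057), with a split at the median (0.18, FDR 0.058), with UMI totals alone (0.19, FDR 0.081), without the block (FDR 0.57), without WT mouse 1 (0.19, FDR 0.10) and without HNKO mouse 2 (0.22, FDR 0.10).

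Apoc3 went the other way. It was at 256, 238 and 278 CPM in the periportal tercile of WT mice 1, 2 and 3 and at 232, 191 and 224 CPM in their pericentral tercile. In HNKO mice 1, 2 and 3 the periportal values were 215, 295 and 211 CPM and the pericentral values 164, 240.1 and 103 CPM. All 6 mice had more Apoc3 in the periportal tercile (log2 difference -0.42, SE 0.09, FDR 0.0038), as did 9.69% of all genes tested. The pericentral value of HNKO mouse 3 was 0.485 of its periportal value, against 0.762 to 0.903 in the others, and without that mouse the log2 difference was -0.30 (FDR 0.0060). With a score of Slc1a2 and Sds alone, the call of Apoc3 was lost (-0.19, FDR 0.10), as it was without the block (-0.37, FDR 0.41).

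Apoa1, which shares a gene cluster with Apoc3, was higher in the pericentral tercile in 5 of 6 mice, by 1.17 to 1.46 times, and lower in HNKO mouse 3 (0.793). It did not pass with all mice (log2 difference 0.26, SE 0.09, FDR 0.053) and passed without HNKO mouse 3 (0.36, FDR 0.00056). Apoa4, which lies beside them, had a log2 difference of -0.37 (SE 0.19, FDR 0.20) from 7 to 102 UMIs per tercile. Apoe (0.13, FDR 0.21), Angptl8 (0.05, FDR 0.89), Apoa2 (0.01, FDR 0.96) and Mttp (-0.08, FDR 0.53) had smaller fitted differences and were not called.

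**Figure D2:**
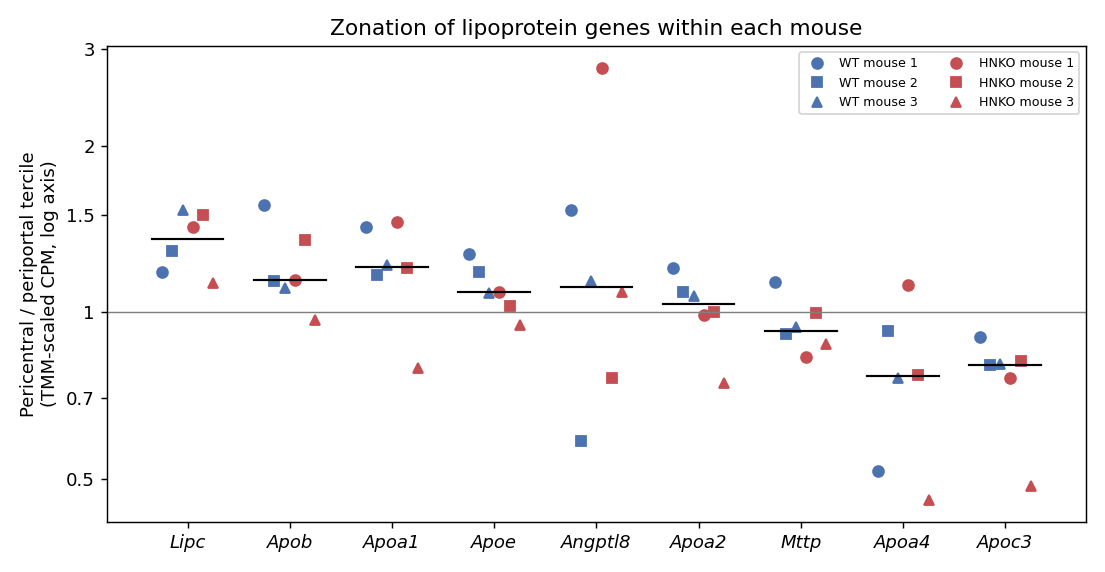
Ratio of pericentral to periportal tercile (TMM-scaled CPM, log axis) for each member in 3 WT (blue) and 3 HNKO (red) mice, with a black line at the median of 6 mice. All mice lie above 1 for Lipc (1.13 to 1.54) and below 1 for Apoc3 (0.485 to 0.903), and HNKO mouse 3 is the lowest mouse for Apoa1 (0.793) and Apoc3 (0.485).

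Whether zonation differed between genotypes was tested next. In the interaction of zone and genotype, 0 of 9 members were called (edgeR, 0.0104% of 9621 genes), and at an unadjusted p under 0.05 there was 1 member beside 5.68% of all genes. That member was Apoa2, with a log2 difference of the zone effect in HNKO against WT of -0.31 (SE 0.14, FDR 0.87), or -0.17 (FDR 1.0) without HNKO mouse 3. Its pericentral to periportal ratio was 1.07 to 1.21 for WT and 0.746 to 1.0 for HNKO. Nuclei had a higher median UMI count in the periportal tercile (4353 to 6667) than in the pericentral tercile (3052 to 4890), and the share of unspliced UMIs was 78.5% to 81.2% and 76.5% to 80.4%. Their part in the zone effect was not tested.

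Genes around the members were zonated in both directions. Of 13 tested genes of assembly and export, 5 were higher in the pericentral tercile: Sort1, a sorting receptor that binds apolipoprotein B (log2 difference 1.68, FDR 4.8e-05), Apobec1 and A1cf, which edit Apob mRNA (0.48 and 0.32, FDR 0.034 and 0.0053), and the export genes Sar1b and Mia3 (both 0.44, FDR 0.00020 and 0.0021). P4hb, whose product is the partner subunit of microsomal triglyceride transfer protein, was higher in the periportal tercile (-0.34, FDR 0.047). Of 8 other apolipoproteins, Apof and Apon were higher in the periportal tercile (-0.59 and -0.61, FDR 0.0094 and 0.014).

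Among 8 tested efflux and receptor genes, 3 were higher in the pericentral tercile, namely the lipid exporter Abca1 (0.24, FDR 0.012) and the receptors Lrp1 (0.56, FDR 5.9e-05) and Vldlr (3.78, FDR 6.8e-07), and the remnant-binding proteoglycan Sdc1 was higher in the periportal tercile (-0.57, FDR 0.0070). Of 9 transcription factors, Ppara, which drives fatty acid oxidation, Nr1h4, the bile acid receptor, and Foxo1 were higher in the pericentral tercile (0.74, 0.31 and 0.24, FDR 8.0e-08, 0.019 and 0.035). Srebf1, a regulator of lipid synthesis, was higher in the periportal tercile (-0.33, FDR 0.0066). All these values are log2 differences from the same edgeR fit. The value of Vldlr rested on few UMIs, 0 to 5 in a periportal tercile and 17 to 45 in a pericentral tercile. With 1 mouse left out, the calls of Apobec1 (FDR up to 0.23), P4hb (0.17), Foxo1 (0.15) and Nr1h4 (0.093) were lost in 4 or 5 of the 6 fits, and that of Apon was lost without HNKO mouse 3 (0.066).

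Across the authors' hepatocyte clusters, 9 of 13 took 94.8% or more of their nuclei from 1 mouse, so that cluster and mouse cannot be told apart there. The cluster named Hepatocytes 2 was spread over mice, with at least 20 nuclei in 5 mice (all but HNKO mouse 3). Because clusters were made from these genes among others, its levels are a description. Apoe in Hepatocytes 2 was at 1273, 1232 and 1385 raw CPM in WT mice 1, 2 and 3 and at 1369 and 1483 in HNKO mice 1 and 2, against 287 to 404 in the other hepatocytes of the same mice. The ratio was 3.05 to 4.78 in each mouse, and every value of the cluster was above every value of the other hepatocytes.

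The members fell into an upper and a lower group in Hepatocytes 2. Small apolipoproteins were high, with ratios of 2.77 to 4.93 for Apoa2, 2.34 to 3.33 for Apoc3 and 1.66 to 2.24 for Apoa1. Apob (0.976 to 1.36), the transfer protein gene Mttp (0.548 to 1.36) and the lipase gene Lipc (0.472 to 0.894) had median ratios of 1.03, 0.760 and 0.779, and Alb was at 1.12 to 1.47. Apoa4 was at 1.04 to 2.73 and Angptl8 at 0 to 2.11, both from few UMIs.

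Hepatocytes 2 also had the lowest unspliced share, 66.3% of its UMIs against 75.9% to 81.7% in the other 12 clusters, and a median of 2645 UMIs per nucleus against 3530 to 6097. To see how the members follow that share, hepatocyte nuclei of each mouse were split into terciles by it, without use of clusters. The share is taken over all UMIs of a nucleus, those of the members included. The terciles are therefore not independent of how far a gene is counted as spliced RNA, and the ratios are a description. The unspliced share was 63.7% to 70.4% in the lowest and 81.5% to 83.9% in the highest tercile. Apoe was 2.22 to 3.68 times higher in the lowest tercile, Apoa2 2.08 to 2.84 times, Apoc3 1.68 to 2.31 times and Apoa1 1.57 to 2.05 times, in all 6 mice. Apob changed less, by 1.09 to 1.35 times, and Mttp (0.718 to 0.934) was lower in the lowest tercile in every mouse. Lipc (0.746 to 1.03) was lower there in all mice but WT mouse 3. Apoa4 (1.30 to 2.66) and Angptl8 (1.45 to 3.52) were higher in the lowest tercile in all 6 mice, whereas Angptl8 lay on both sides of 1 in Hepatocytes 2. The part of splicing state in the levels of Hepatocytes 2 was not tested.

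**Figure D3:**
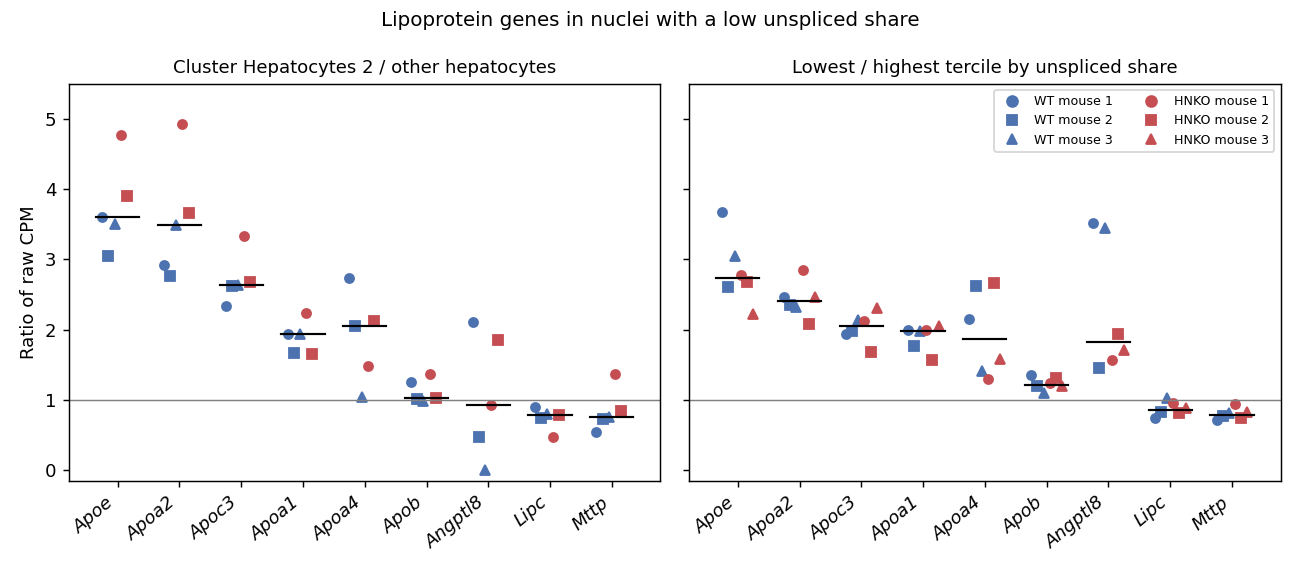
Ratio of raw CPM for each member in the cluster Hepatocytes 2 against the other hepatocytes of the same mouse (left, 5 mice) and in the lowest against the highest tercile of hepatocyte nuclei by unspliced share (right, 6 mice), with black lines at the median. Apoe, Apoa2, Apoc3 and Apoa1 lie above 1 in every mouse of both panels, whereas Mttp and Lipc have medians below 1.

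The authors also named clusters by zone. In Central 1, which had at least 20 nuclei in 4 mice, Apob was at 1.11 to 1.38 times the level of all hepatocytes of the same mouse and Apoc3 at 0.629 to 0.816 times. Lipc was at 0.823 to 1.06 times there, and Mttp at 0.623 to 0.820 times. In Periportal 1, with 2 such mice, Apoc3 was at 1.09 and 1.19 times, Lipc at 0.810 and 0.884 times, and Apob at 0.929 and 1.03 times. Clusters seen in 1 mouse each did not all follow these values, and Apob was at 0.914 times in Central HNKO 1 and at 1.13 times in Central HNKO 2.

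Outside hepatocytes, the authors' clusters gave endothelial, stellate, CD45+, Kupffer cells and cholangiocytes, with at least 10 nuclei in 6, 6, 5, 3 and 3 mice. The authors' CD45+ clusters were joined, as were their cholangiocyte clusters. The mix of clusters within these sums was not compared between mice. Each carried its defining markers. The 5 Kupffer markers Clec4f, Cd5l, Vsig4, Timd4 and Marco summed to 4832 to 5874 raw CPM in Kupffer cells. They summed to 4.88 to 9.98 in hepatocytes and to 0 to 194 in CD45+ cells. The 5 CD45+ markers Ptprc, Skap1, Cd247, Bank1 and Itgax did not set CD45+ cells apart from Kupffer cells. Their sums were 2358 to 4441 raw CPM in CD45+ cells and 2668 to 3799 in Kupffer cells. UMIs of hepatocyte genes were found in every type. The reference genes Alb, Ttr, Trf, Fgb and Ahsg summed to 6421 to 11508 raw CPM in hepatocytes, to 3203 to 6888 in CD45+ cells, and to between 759 and 3967 in the other 4 types. The source of these UMIs, and of a member's UMIs in these types, was not tested.

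Hepatocytes had the highest mean of 8 members, and Apoe was the exception. Apob was at 939 ± 176 raw CPM in hepatocytes (SD, n = 6), 422 ± 153 in CD45+ cells (n = 5), 308 ± 69.9 in endothelial cells (n = 6), 182 ± 18.0 in Kupffer cells (n = 3), 173 ± 48.1 in cholangiocytes (n = 3) and 109 ± 72 in stellate cells (n = 6). Within a mouse, no other type reached its hepatocytes for Apob, Mttp, Lipc, Apoa1 or Apoc3. CD45+ cells were above hepatocytes for Angptl8 in 3 of 5 mice and for Apoa2 in 1 of 5. Endothelial cells were above them for Apoa4 and Angptl8 in 1 of 6 mice each, and cholangiocytes for Angptl8 in 1 of 3. Angptl8 was at 32.9 ± 39.9 raw CPM in hepatocytes (range 7.08 to 114). In CD45+ cells it was at 27.1 ± 9.59, from 1 to 8 UMIs per mouse. For each of the 8 members, the ranges over mice of the first and second type overlapped.

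Relative to the reference genes, Apob lay on both sides of its proportion in hepatocytes. Its ratio to the summed reference genes, divided by that ratio in hepatocytes of the same mouse, was 0.901 to 1.51 in endothelial cells, 0.769 to 1.18 in CD45+ cells, 0.70 to 1.80 in Kupffer cells, 0.637 to 1.08 in cholangiocytes and 0.396 to 0.838 in stellate cells. Values around 1 are those that RNA in the proportions of a mouse's summed hepatocyte nuclei gives. These proportions differ among hepatocytes. In Hepatocytes 2, Apoe was at 3.05 to 4.78 times and Ahsg at 0.838 to 0.925 times the level of the other hepatocytes. The part of such differences in the ratios was not tested. Mttp had 0, 0 and 1 UMI in Kupffer cells of the 3 HNKO mice, with ratios of at most 0.295, and Lipc had ratios of 0.0713 to 0.609 there. Angptl8 had 0 of 234159 UMIs in these Kupffer cells, which allows up to 12.8 raw CPM by a floor of 3 counts, for counting error only.

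Apoe, which macrophages are known to secrete, was at 728, 593 and 745 raw CPM in Kupffer cells of HNKO mice 1, 2 and 3, from 75, 22 and 70 UMIs. Hepatocytes of the same mice had 312, 421 and 554. Kupffer cells were thus above hepatocytes in 3 of 3 mice, by 1.34 to 2.33 times. In WT mice, 6, 6 and 4 Kupffer nuclei were too few for the comparison and held 13, 18 and 4 Apoe UMIs.

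The ratio of Apoe to the reference genes was 4.92 to 14.2 in Kupffer cells, and 1.98 to 5.56 in CD45+ cells, where Apoe was at 366 to 765 raw CPM and above hepatocytes in 4 of 5 mice. In stellate cells it was 2.09 to 3.02, and in endothelial cells 1.46 to 3.31. No mouse was at or below 1 in any type. Apoa2, a small apolipoprotein like Apoe in Hepatocytes 2, also had ratios above 1 in every mouse, from 1.2 to 5.81 over the 5 types and from 2.63 to 3.91 in Kupffer cells.

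**Figure D4:**
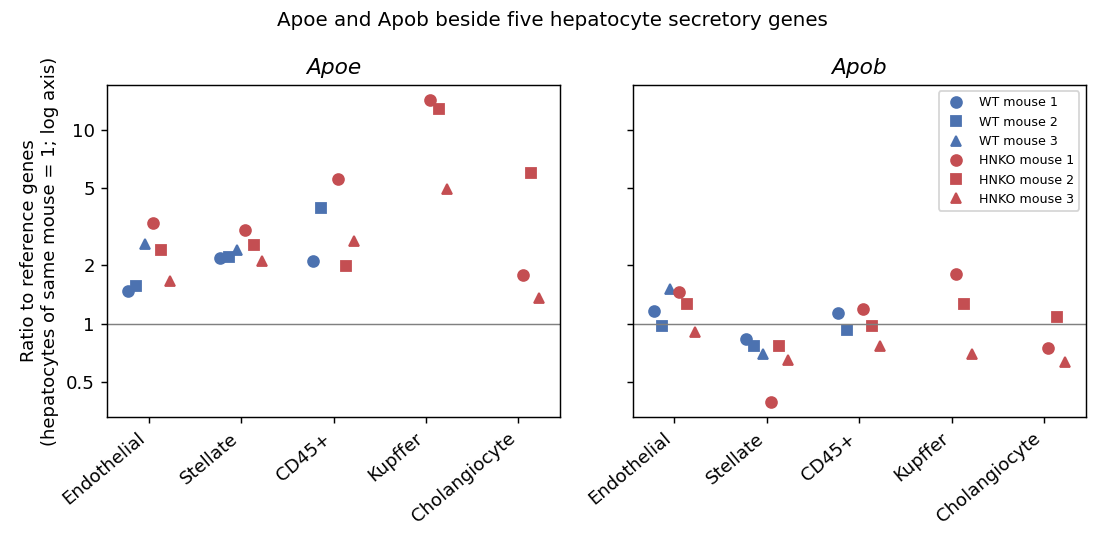
Apoe (left) and Apob (right) relative to the sum of Alb, Ttr, Trf, Fgb and Ahsg in each non-hepatocyte type, divided by the same ratio in hepatocytes of the same mouse (log axis, 1 symbol per mouse with at least 10 nuclei). Apoe lies above 1 in every mouse and reaches 4.92 to 14.2 in Kupffer cells, whereas Apob lies between 0.396 and 1.80.

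The share of nuclei with a UMI was compared after each nucleus was thinned to 1000 UMIs, which left out no nucleus. Apoe was then found in 37.9% to 60% of Kupffer nuclei, 29.3% to 44.9% of hepatocytes and 11.5% to 26.2% of endothelial nuclei. It was found in 30.8% to 46.7% of CD45+ nuclei, 22.5% to 34.5% of cholangiocytes and 0% to 37.5% of stellate nuclei. The Kupffer shares were 11 of 29, 6 of 10 and 12 of 25 nuclei in HNKO mice 1, 2 and 3. Their 95% intervals (20.7% to 57.7%, 26.2% to 87.8% and 27.8% to 68.7%) each held the hepatocyte share of the same mouse. Unthinned, the shares were 69.0% to 90% at a median depth of 2782 to 3199 UMIs in Kupffer nuclei and 78.6% to 88.4% at 3572 to 5786 UMIs in hepatocytes. Apob was found in 42.7% to 64.5% of thinned hepatocytes and still in 12.7% to 27.6% of endothelial nuclei, a type that is not known to make it. The source of that share was not tested.

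**Figure D5:**
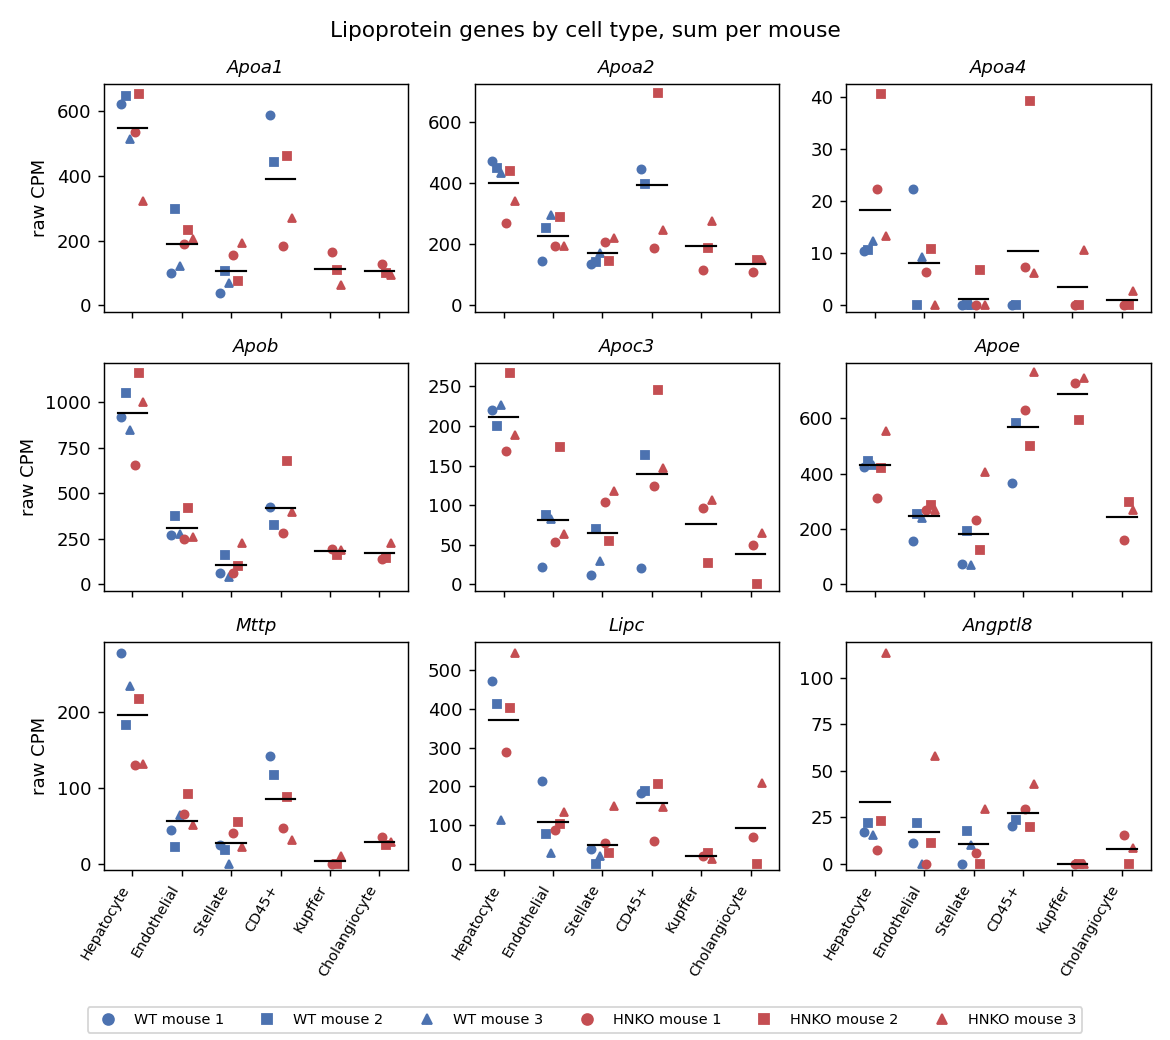
raw CPM of the 9 members in 6 cell types, with 1 symbol per mouse with at least 10 nuclei (WT blue, HNKO red) and black lines at the mean. Hepatocytes have the highest mean for 8 members, and Kupffer cells for Apoe (593 to 745), where only HNKO mice had enough nuclei.

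Genotype was also compared in the types without Cre activity by design. None of the members with enough counts was called by edgeR in endothelial cells (6 members, 0.00% of 2743 genes), stellate cells (4 members, 0.00% of 2266 genes) or CD45+ cells (7 members, 0.00% of 2703 genes). DESeq2 called 1, 1 and 4 genes there, and unadjusted p-values were under 0.05 for 104, 160 and 222 genes (3.79%, 7.06% and 8.21%). The sums held 42805 to 317702 UMIs, far below those of hepatocytes, so that only a part of the members could be tested at this depth.

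Apoe in stellate cells was at 74.2, 194 and 69.9 raw CPM in WT mice 1, 2 and 3 and at 231, 123 and 406 in HNKO mice 1, 2 and 3, from 6 to 55 UMIs. The genotypes overlapped (log2 fold change 1.23, SE 0.52, unadjusted p = 0.035 by the edgeR fit, FDR 0.70). The reference genes in the same stellate sums were at 759 to 2149 raw CPM for WT and 1321 to 2251 for HNKO, and the ratio of Apoe to them was 2.17 to 2.40 for WT and 2.09 to 3.02 for HNKO. In endothelial cells Apoe did not overlap between genotypes in TMM-scaled CPM, with HNKO mice higher (log2 fold change 0.32, SE 0.27, FDR 0.996), as did 4.78% of genes tested. Apoa1 and Mttp were lower without overlap in TMM-scaled CPM in CD45+ cells of HNKO mice (-0.85 and -1.33, FDR 0.66 and 0.67), as were 12.9% of genes in this comparison of 2 WT and 3 HNKO mice. In raw CPM Apoa1 overlapped, with 461 in HNKO mouse 2 and 444 in WT mouse 2, and Mttp did not. The reference genes were at 3644 and 4512 raw CPM in those WT sums and at 3203 to 6888 in the HNKO sums, and their part was not tested.

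Genes that followed a member most closely were looked for over the 29 sums of type and mouse, among 6464 genes with at least 500 UMIs. The closest to Apob were Abcc6, Fgg and Isoc2a (Pearson's r 0.94, 0.91 and 0.91), and the closest to Apoe were Pnpla7, Rbm47 and Cers6 (0.87, 0.86 and 0.84). The sums share mice and libraries, and all hold UMIs of the reference genes, so that these values describe likeness in these samples only.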

How the data were processed

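Nuclei were sorted by the authors (4250 per mouse), marked with hashtags and run together on the 10x 3′ platform, in 2 pools for RNA and 2 for hashtags. The submitters' processing notes name Cell Ranger version 5.0.1 and Alevin, and the authors used GRCm38 with GENCODE gene models. The deposited matrix holds estimated counts of UMIs per gene and nucleus, introns included, and 10.1% of its nonzero values were not whole within a tolerance of 0.001. The deposited hashtag matrix holds raw counts, and the unspliced UMIs per nucleus are deposited estimated counts too. The authors removed nuclei without a call for a single mouse and those with very many genes, and no doublet caller was run here. Barcodes shared between mice numbered 0. A matrix of corrected values was not used.

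The members and lists were chosen with earlier results of these data known. Estimated counts were summed per mouse and type (at least 10 nuclei, 20 for clusters), rounded to whole numbers, and compared by the quasi-likelihood F test of edgeR (version 4.0.16, under R version 4.3.3; genes kept by filterByExpr, TMM scaling, two-sided, Benjamini-Hochberg over all genes tested, FDR 0.05). The model was genotype alone, or zone with mouse as a block, since both terciles come from the same animal. CPM in tests refer to the UMIs of genes that passed the filter. Raw CPM refer to all UMIs of a sum. DESeq2 version 1.42.0 was an alternative. Each mouse is 1 animal, and p-values of the genotype fits measure the spread between these mice. With mouse as a block, those of the zone and interaction fits measure how the difference between terciles varies over these mice. Tests were tried on simulated counts first. Named genes are the 9 members, and, of the other lists, those past the threshold or the 2 with the largest change. Some genes of these lists are not reported here. Medians, ranges and figures were made in Python version 3.11.15 with numpy version 2.4.6, pandas version 2.3.3 and matplotlib version 3.10.9. Intervals and floors cover counting error only.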

Additional observations from a re-analysis of the deposited data

Results flagged for a closer look

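Among the 9 members, the ratio of pericentral to periportal tercile in HNKO mouse 3 lay far from the other 5 mice for Apoa1 (0.793, against 1.17 to 1.46) and Apoc3 (0.485, against 0.762 to 0.903) by Dixon's test at 95%, which flags about 1 in 20 such groups by chance. The same mouse had the lowest own-hashtag share (49.0%) and the highest TMM factor in both terciles (1.26 each), and their part in these ratios was not tested.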

How the results depend on the processing

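No member was called between genotypes under any alternative. Genes called in hepatocytes rose from 0 to 21 with DESeq2 and 35 without the filter, and were 0 to 32 with 1 mouse left out. In endothelial cells there were 1, 16 and 0, in stellate cells 1, 29 and 0 to 47, and in CD45+ cells 4 with DESeq2 and 0 to 10 with 1 mouse left out (without a WT mouse, the lone WT sum was assumed to vary like the others). The highest counts came without HNKO mouse 2. Both terciles are paired by animal, and without the block the zone calls fell from 1736 to 252 genes and from 3 to 0 members. DESeq2 called 1055 genes by zone, and a score of Slc1a2 and Sds alone called 5 members (Lipc, Apob, Apoa1, Apoe and Mttp). With 1 mouse left out, 1257 to 1683 genes and 2 to 4 members were called. The interaction called 1 gene, 2 with a split at the median, and 1 to 12 with 1 mouse left out (12 without HNKO mouse 2).

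Signs of log2 differences turned for members that were not called. Between genotypes with 1 mouse left out, Lipc was -0.30 to 0.48 (negative without WT mouse 3) and Angptl8 -0.31 to 1.56 (negative without HNKO mouse 3), and Apob was 0.0012 with UMI totals. By zone, Apoa2 was -0.013 without the filter, -0.015 with a split at the median, -0.066 with UMI totals and -0.042 to 0.093 with 1 mouse left out, and Angptl8 was -0.091 with a split at the median and -0.048 to 0.19 with 1 mouse left out. In the interaction, Lipc was -0.022 with a split at the median, and with 1 mouse left out Lipc was -0.050 to 0.17, Apoa4 -0.17 to 0.30, Apob -0.26 to 0.027, Angptl8 -0.27 to 0.47 and Apoa1 -0.36 to 0.067. The causes were not tested. A comparison within each RNA pool was not run, since the tables do not give the pool of a nucleus, and genotype was not tested in Kupffer cells, since each WT mouse had under 10 nuclei. UMI totals and the removal of the cluster Hepatocytes 2 were chosen after seeing the data.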
